A study of Homo sapiens with 9 samples.

Results

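The 10 transcripts described here encode plasma membrane amino acid transporters, SLC7A11, SLC7A5, SLC3A2, SLC7A1, SLC1A5, SLC1A4, SLC38A1, SLC38A2, SLC6A9 and SLC43A1. They were chosen by gene symbol, with 1 row per symbol, from the 60605 genes of the deposited table, and all 10 were among the 21395 genes tested, those with a mean of at least 0.1 FPKM (the count scaled by exonic length and library total). RNA-seq was performed on TE13 cells, an established esophageal squamous cell carcinoma (ESCC) line, to assess the transcriptome after knockdown of the lncRNA PARylator (LINC00885). The cells received control siRNA or either of a pair of siRNAs against PARylator, siRNA.1 and siRNA.2, and each condition has 3 libraries, 9 in all. All groups were the same line carrying a transfected siRNA, a single control siRNA served both comparisons, and cells without siRNA were not part of the groups.

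Amino acid transporters at the cell surface set which amino acids a cell can take up. Several work as pairs, in which a light chain of the SLC7 family forms the transport path and the heavy chain SLC3A2 (CD98 heavy chain) carries it to the plasma membrane, while others couple uptake to sodium or exchange one amino acid for another. Many of these genes are known targets of ATF4, the transcription factor of the integrated stress response, which binds the amino acid response element, and in squamous tumors SLC7A5, SLC1A5 and SLC7A11 are known for the uptake of leucine, glutamine and cystine.

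The core of the amino acid response element, TGATGCAA, was searched on both strands near the starts of the members. In the promoter windows of RefSeq (GRCh38.p14, from 250 bases before to 50 bases after each annotated start, with several starts for some genes) it was present in 2 of the 9 members with a window, SLC1A4 and SLC1A5, and in 1.08% of 27305 genes. SLC7A11 had no entry in these windows and was left out of the wider search below as well, although it has a canonical GENCODE transcript. Whether it holds the core was therefore not examined. From 1000 bases before to 2000 bases after the start of the canonical GENCODE release 44 transcript (GRCh38), it was present in 6 of the same 9 members and in 6.21% of 20044 protein-coding genes. A match describes letters in a window and is not evidence of a bound site. The sequences are shown because they are the motif-bearing stretches of the members, each written 5′ to 3′ on the strand of the gene with the core, or its reverse complement, in capitals.
SLC1A4, chr2:64989381-64989410, plus strand: gcggctcccgtTTGCATCAtctccagccgg
SLC1A5, chr19:46784893-46784922, minus strand: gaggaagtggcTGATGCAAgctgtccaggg
SLC7A5, chr16:87868808-87868837, minus strand: tccctgcatccTTGCATCActacgcccctg
SLC7A1, chr13:29595139-29595168, minus strand: ggcgtggtgcaTGATGCAAcaccgagtgag
SLC38A1, chr12:46268789-46268818, minus strand: aggggagattcTGATGCAAtcggcccggaa
SLC38A2, chr12:46372042-46372071, minus strand: gacgatcgataTTGCATCAgttttctttcc
SLC6A9, chr1:44031369-44031398, minus strand: cctcgggaggcTGATGCAActttcccttta
The match of SLC1A4 began 7 bases before the annotated start and ran into exon 1, and that of SLC1A5 began 97 bases before one of its RefSeq starts. Those of SLC38A1 and SLC6A9 were in exon 1, and those of SLC7A5, SLC7A1 and SLC38A2 in intron 1. In the RefSeq windows, the core of the antioxidant response element, TGACNNNGC, was present in 4 of the 9 members (SLC7A5, SLC3A2, SLC7A1 and SLC1A5) and in 16.1% of genes, and the E-box CACGTG in 3 (SLC7A5, SLC1A5 and SLC43A1) and in 8.77% of genes. Neither overlapped the stretches shown.

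Total counts on genes were 15337917 to 17899074 in the control libraries, 15374616 to 17762752 in siRNA.1 libraries and 19213164 to 22559998 in siRNA.2 libraries. The targeted LINC00885 had 6, 7 and 12 counts with control siRNA, 4, 5 and 2 with siRNA.1 and 2, 0 and 4 with siRNA.2. The log2 fold changes were -1.21 (SE 0.95, edgeR adjusted p = 0.376) and -2.33 (SE 1.01, edgeR adjusted p = 0.0659), and the knockdown did not pass the test at this depth. Mitochondrial transcripts took 7.46% to 7.66% of the counts in control libraries, 4.99% to 5.06% in siRNA.1 libraries and 5.54% to 5.56% in siRNA.2 libraries. All 8 squamous epithelial markers were present. Their summed FPKM was 649.7 to 662.4 in control libraries, 572.8 to 599.9 in siRNA.1 libraries and 563.2 to 582.0 in siRNA.2 libraries. Single markers moved both ways. For either siRNA, 3 were higher (KRT6A, DSG3 and EPCAM) and 4 lower (KRT5, KRT17, TP63 and CDH1) at an edgeR adjusted p under 0.05. KRT5 changed most, with mean FPKM of 142.5, 39.97 and 55.82 in the control, siRNA.1 and siRNA.2 groups. The summed level of 6 blood cell markers was 0.45 to 0.72, 3.36 to 3.78 and 3.43 to 3.91 FPKM, of which 3 of 3 tested rose with siRNA.1 and 2 with siRNA.2, while MS4A1 and HBB were at 0 counts in all 9 libraries. The 4 fibroblast markers summed to 2.22 to 2.40, 1.46 to 1.62 and 1.44 to 1.68 FPKM, and the 4 endothelial markers to 1.20 to 1.54, 0.63 to 0.89 and 0.42 to 0.55 FPKM. The part of these shifts in the results below was not tested.

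PARylator siRNA libraries had higher levels of most of the transporter transcripts. With siRNA.1, 8 of the 10 members rose and 0 fell at an adjusted p under 0.05 in edgeR's quasi-likelihood test, and the same counts, 8 and 0, were found with siRNA.2. Of all genes tested, 15.0% were higher and 15.2% lower with siRNA.1, and 15.8% were higher and 15.1% lower with siRNA.2. SLC38A1 and SLC43A1 did not pass the test in either comparison. Both comparisons use the same control libraries and are not independent of each other. In 8 members, all 6 PARylator siRNA libraries lay above all 3 control libraries in CPM (counts scaled to library size), against 13.3% of genes. The members had a median log2 fold change of 0.43 for siRNA.1 and 0.39 for siRNA.2, where all genes tested had -0.00056 and 0.0040. In bulk RNA, a change in the share of cells that contain a transcript and a change in its amount per cell cannot be told apart.

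**Figure D1:**
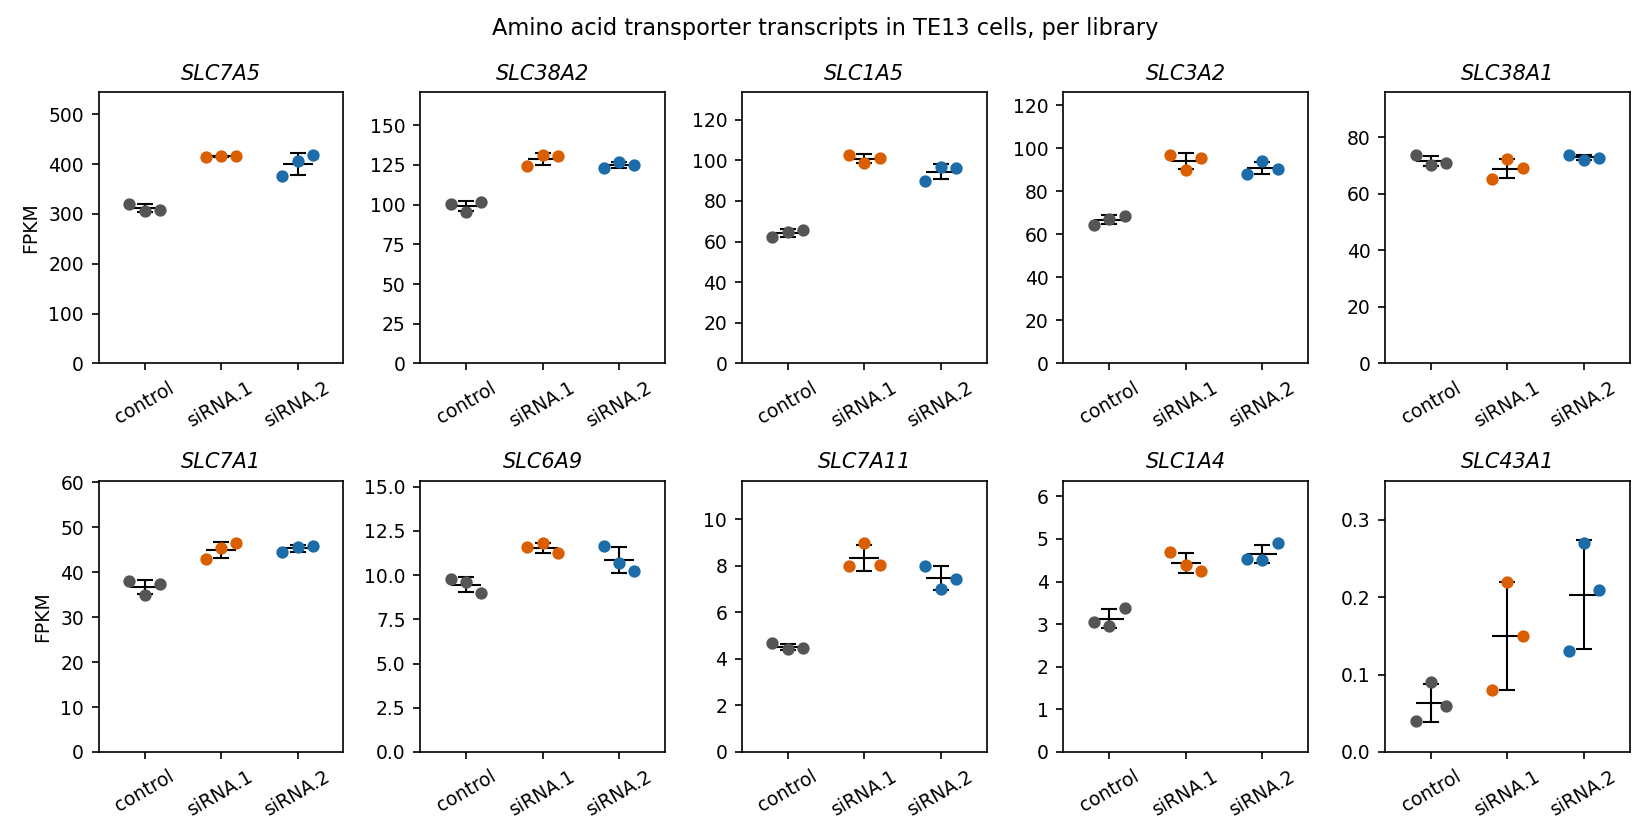
FPKM (vertical axes, each from 0) of the 10 transporter transcripts in the libraries with control siRNA, siRNA.1 and siRNA.2 (horizontal axes), in order of mean level. Points are libraries, and bars are the mean ± SD of 3 libraries. In 8 panels every siRNA library is above every control library, and the exceptions are SLC38A1 and SLC43A1.

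The heavy chain SLC3A2 (ENSG00000168003, GRCh38 chr11:62856004-62888880, plus strand), which carries several light chains to the cell surface, was at 64.38, 67.21 and 68.52 FPKM with control siRNA, 96.96, 89.98 and 95.24 with siRNA.1 and 87.94, 93.89 and 90.53 with siRNA.2. The control libraries did not overlap with either siRNA, whereas the siRNA.1 and siRNA.2 libraries overlapped. SLC3A2 rose with siRNA.1 by a log2 fold change of 0.47 (SE 0.039, edgeR adjusted p = 1.04e-31) and with siRNA.2 by 0.43 (SE 0.039, edgeR adjusted p = 2.32e-27).

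SLC7A5 (LAT1, ENSG00000103257, chr16:87830023-87869507, minus strand), the light chain that exchanges large neutral amino acids such as leucine and tryptophan, was the most abundant member in every library. It was at 320.41, 305.54 and 308.38 FPKM with control siRNA, 414.63, 416.03 and 416.61 with siRNA.1 and 375.63, 406.01 and 418.86 with siRNA.2. The siRNA.1 libraries lay within 2 FPKM of each other, and siRNA.2 replicate 1 was the lowest of the 6 knockdown libraries but above every control library. Its log2 fold changes were 0.39 with siRNA.1 (SE 0.031, edgeR adjusted p = 2.70e-33) and 0.35 with siRNA.2 (SE 0.031, edgeR adjusted p = 3.07e-27). SLC7A5 alone took 46.1% to 47.4% of the summed member FPKM in control libraries, 47.2% to 47.6% in siRNA.1 libraries and 45.8% to 48.0% in siRNA.2 libraries. Its pseudogenes SLC7A5P1 (chr16:29613103-29613640) and SLC7A5P2 (chr16:21519830-21520365) are far shorter than the 4764 exonic bases of SLC7A5. Both were at 0 counts in all libraries. How reads that match SLC7A5 and a pseudogene were counted is not given in the sources used here. The SLC7A5 level is uncertain to the extent of such shared sequence, which was not measured.

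SLC7A11 (xCT, ENSG00000151012, chr4:138164097-138242349, minus strand), the light chain that imports cystine in exchange for glutamate, had the largest fold change of the 8 members that rose. It was at 4.67, 4.44 and 4.46 FPKM with control siRNA, 8.01, 8.98 and 8.02 with siRNA.1 and 8.01, 6.99 and 7.42 with siRNA.2. Control and knockdown libraries did not overlap. The rise was 1.81-fold with siRNA.1 (log2 fold change 0.85, SE 0.066, edgeR adjusted p = 4.88e-36) and 1.64-fold with siRNA.2 (log2 fold change 0.71, SE 0.066, edgeR adjusted p = 1.62e-25). The antisense gene SLC7A11-AS1 overlaps it, with at most 31 counts in a library. Whether counting used strand is not given in the sources used here, so reads of overlapping genes on opposite strands cannot be told apart.

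The light chains were compared with their heavy chain per exonic length, as deposited. That length was 6392 bases for SLC3A2, whose canonical transcript has 1885, and 4764 for SLC7A5, whose canonical transcript has 4556. The size of the ratio therefore depends on the length used, and a ratio with canonical lengths was not computed. The summed FPKM of 6 light chains (SLC7A5, SLC7A6, SLC7A7, SLC7A8, SLC7A10 and SLC7A11) divided by the FPKM of SLC3A2 was 4.85 ± 0.279 with control siRNA (SD, n = 3), 4.59 ± 0.192 with siRNA.1 and 4.56 ± 0.193 with siRNA.2. The libraries of the conditions overlapped. Two-sided exact permutation tests over libraries gave p = 0.300 for siRNA.1 and p = 0.300 for siRNA.2 against control siRNA and p = 0.900 between the siRNAs, but with 3 libraries in each condition p cannot go below 0.1, so that no difference could have passed 0.05. SLC7A5 took 96.2% to 96.9% of this light chain FPKM over the 9 libraries. The share of SLC7A11 was 1.40% in each control library, 1.86% to 2.08% in siRNA.1 libraries and 1.67% to 2.05% in siRNA.2 libraries, so that the control libraries were below all knockdown libraries. SLC7A6, a light chain for cationic and neutral amino acids, had shares of 1.37% to 1.63%, 1.10% to 1.25% and 1.12% to 1.29%, with the control libraries above the others. The level of SLC7A6 itself did not fall, with means of 4.78, 4.97 and 5.08 FPKM. Its log2 fold changes were 0.031 with siRNA.1 (edgeR adjusted p = 0.838) and 0.083 with siRNA.2 (edgeR adjusted p = 0.499).

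**Figure D2:**
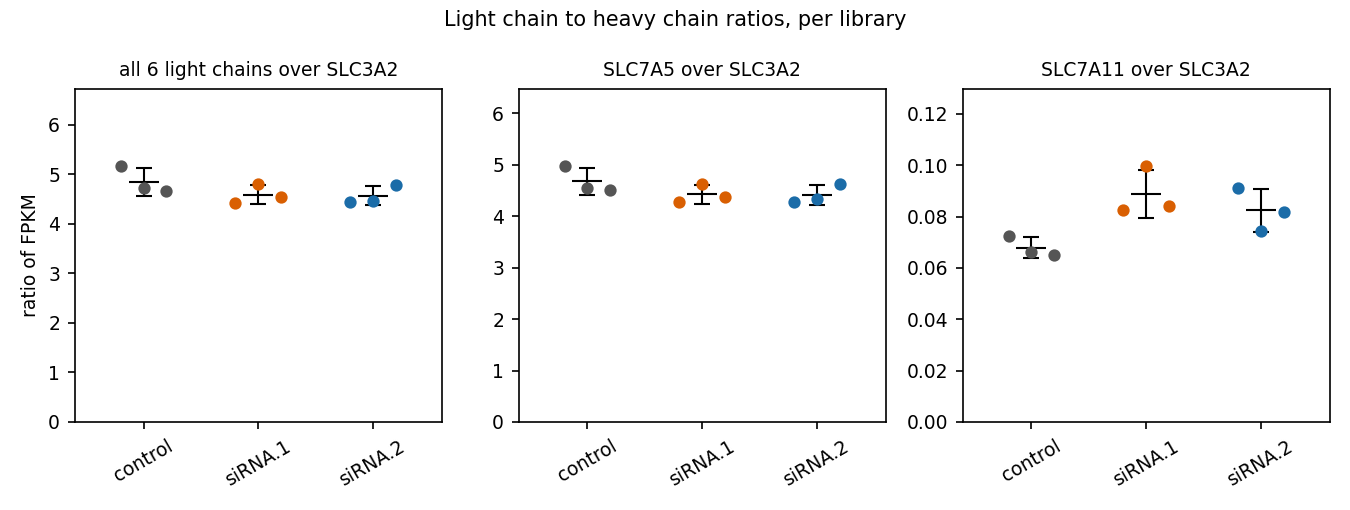
Ratio of FPKM (vertical axes, each from 0) of the 6 summed light chains, of SLC7A5 and of SLC7A11 over the heavy chain SLC3A2, for control siRNA, siRNA.1 and siRNA.2. Points are libraries, and bars are the mean ± SD of 3 libraries. The first 2 panels overlap between conditions, and in the third every knockdown library, from 0.0745 to 0.0998, is above every control library, from 0.0651 to 0.0725.

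SLC7A1 (CAT1, ENSG00000139514, chr13:29509414-29595688, minus strand), which takes up arginine and lysine without a heavy chain, was at 37.93, 34.93 and 37.39 FPKM with control siRNA, 42.88, 45.31 and 46.44 with siRNA.1 and 44.48, 45.54 and 45.81 with siRNA.2. Its rise was among the smallest that passed, with no overlap between control and knockdown libraries. The log2 fold changes were 0.26 with siRNA.1 (SE 0.043, edgeR adjusted p = 1.26e-08) and 0.29 with siRNA.2 (SE 0.042, edgeR adjusted p = 1.21e-10).

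Both members of the SLC1 family rose. SLC1A5 (ASCT2, ENSG00000105281, chr19:46774883-46788594, minus strand), a sodium-dependent exchanger of neutral amino acids including glutamine, was at 62.07, 64.81 and 65.73 FPKM with control siRNA, 102.73, 98.56 and 100.94 with siRNA.1 and 90.01, 96.89 and 96.30 with siRNA.2. In FPKM all siRNA.2 libraries lay between the control and the siRNA.1 libraries, whereas in TMM-scaled CPM the siRNA.2 libraries (295.4 to 325.9) overlapped with those of siRNA.1 (323.0 to 340.5). Its log2 fold changes were 0.62 with siRNA.1 (SE 0.044, edgeR adjusted p = 1.02e-43) and 0.55 with siRNA.2 (SE 0.044, edgeR adjusted p = 7.05e-34).

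SLC1A4 (ASCT1, ENSG00000115902, chr2:64988477-65023865, plus strand), which exchanges alanine, serine and cysteine, was at 3.05, 2.96 and 3.38 FPKM with control siRNA, 4.70, 4.38 and 4.24 with siRNA.1 and 4.53, 4.51 and 4.90 with siRNA.2. The knockdown libraries were all above the control libraries and overlapped with each other. Its log2 fold changes were 0.47 (SE 0.093, edgeR adjusted p = 3.36e-06) and 0.56 (SE 0.092, edgeR adjusted p = 1.35e-08) with siRNA.1 and siRNA.2.

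Of the sodium-coupled glutamine and alanine transporters, SLC38A2 rose with both siRNAs and SLC38A1 did not pass the test with either. SLC38A2 (SNAT2, ENSG00000134294, chr12:46358188-46372773, minus strand), known to be raised when amino acids are scarce, was at 100.16, 95.64 and 101.71 FPKM with control siRNA, 124.18, 131.45 and 130.55 with siRNA.1 and 123.20, 126.55 and 124.81 with siRNA.2. It rose by log2 fold changes of 0.35 (SE 0.036, edgeR adjusted p = 3.67e-20) and 0.32 (SE 0.036, edgeR adjusted p = 2.71e-17), with no overlap between control and knockdown libraries. SLC38A1 (SNAT1, ENSG00000111371, chr12:46183063-46270017, minus strand), its neighbor on the chromosome, was at 73.67, 70.13 and 70.95 FPKM with control siRNA, 65.40, 72.30 and 69.15 with siRNA.1 and 73.86, 71.97 and 72.79 with siRNA.2. The libraries of all conditions overlapped. Its log2 fold changes were -0.08 with siRNA.1 (95% CI -0.15 to -0.0098, edgeR adjusted p = 0.0786) and 0.015 with siRNA.2 (95% CI -0.057 to 0.086, edgeR adjusted p = 0.828). Without siRNA.1 replicate 2, the highest of its condition, SLC38A1 passed the test as lower with siRNA.1 (log2 fold change -0.11, edgeR adjusted p = 0.0176).

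SLC6A9 (GlyT1, ENSG00000196517, chr1:43991500-44031467, minus strand), the sodium- and chloride-coupled glycine transporter, was at 9.76, 9.61 and 8.98 FPKM with control siRNA, 11.57, 11.80 and 11.23 with siRNA.1 and 11.65, 10.70 and 10.21 with siRNA.2. All knockdown libraries were above the control libraries, and those of siRNA.2 reached into the range of siRNA.1. Its log2 fold changes were 0.26 with siRNA.1 (SE 0.069, edgeR adjusted p = 0.000924) and 0.19 with siRNA.2 (SE 0.068, edgeR adjusted p = 0.0222). The second call was lost without control siRNA replicate 3 (edgeR adjusted p = 0.139) and without siRNA.2 replicate 1 (edgeR adjusted p = 0.148). CCDC24 overlaps SLC6A9 on the opposite strand by 5029 bases and was at 4.88, 3.41 and 3.27 FPKM on average in the 3 conditions.

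SLC43A1 (LAT3, ENSG00000149150, chr11:57484534-57515780, minus strand), which carries leucine and other neutral amino acids by facilitated diffusion, was near the lower limit of measurement. Its counts were 2, 5 and 4 with control siRNA, 5, 12 and 9 with siRNA.1 and 9, 18 and 17 with siRNA.2. The siRNA.1 libraries overlapped with the control libraries, and the siRNA.2 libraries were above them. Its log2 fold changes of 1.16 (95% CI -0.34 to 2.65, edgeR adjusted p = 0.275) and 1.63 (95% CI 0.19 to 3.07, edgeR adjusted p = 0.0791) did not pass the test. The siRNA.1 interval spans changes both smaller and larger than those of the other members. The siRNA.2 interval starts above the values of SLC38A1 and SLC6A9 and spans those of the rest.

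**Figure D3:**
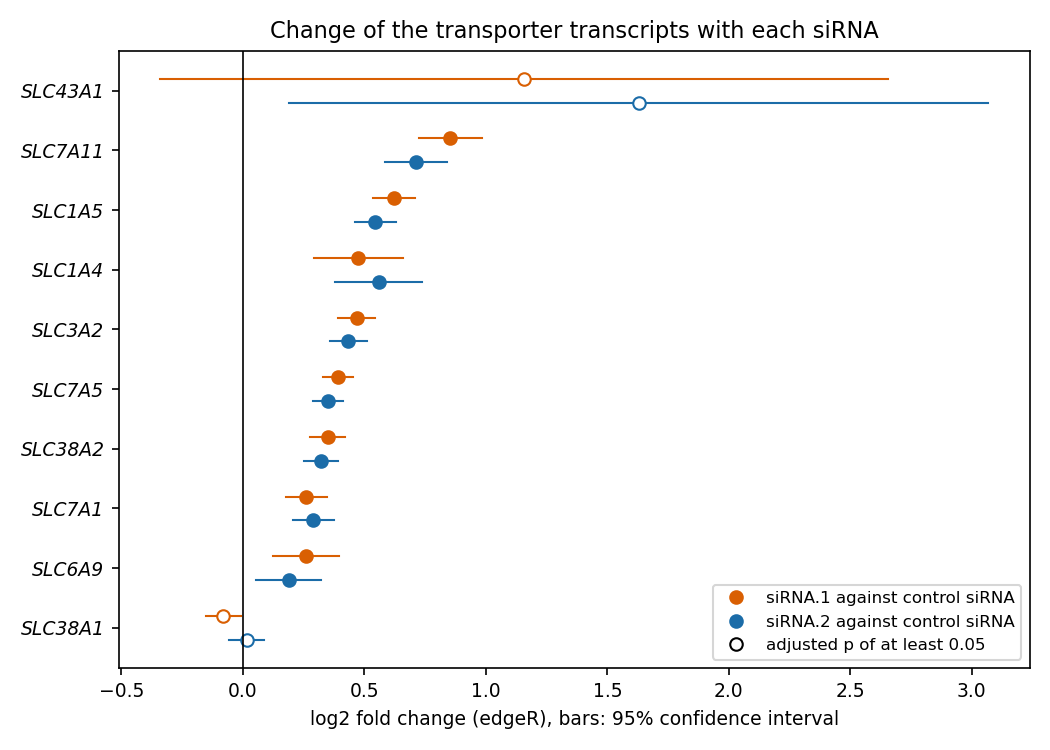
edgeR log2 fold change (horizontal axis) of each transporter transcript with siRNA.1 and siRNA.2 against control siRNA, with 95% confidence intervals as bars and open circles where the adjusted p was at least 0.05. The 8 members that rose have values between 0.19 and 0.85, SLC38A1 sits beside 0, and SLC43A1 has the widest intervals.

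Compared per length as FPKM within the control libraries, the order of mean levels was SLC7A5 (311 ± 7.89, SD, n = 3), SLC38A2 (99.2 ± 3.15), SLC38A1 (71.6 ± 1.85), SLC3A2 (66.7 ± 2.12), SLC1A5 (64.2 ± 1.90), SLC7A1 (36.8 ± 1.60), SLC6A9 (9.45 ± 0.414), SLC7A11 (4.52 ± 0.127), SLC1A4 (3.13 ± 0.221) and SLC43A1 (0.063 ± 0.025). Among neighbors in this order, the libraries of SLC3A2 and SLC1A5 overlapped, and the others did not. With siRNA.1 the order of the middle ranks became SLC1A5 (101 ± 2.09), SLC3A2 (94.1 ± 3.64) and SLC38A1 (69.0 ± 3.45), without overlap. With siRNA.2 the ranges of SLC1A5 (94.4 ± 3.81) and SLC3A2 (90.8 ± 2.98) overlapped, both above SLC38A1 (72.9 ± 0.948). Within each library, SLC3A2 was above SLC1A5 in all 3 control libraries and SLC1A5 above SLC3A2 in all 6 PARylator siRNA libraries. These ranks hold for the deposited exonic lengths, which exceed the canonical transcripts unequally. Exonic and canonical lengths were 6392 and 1885 bases for SLC3A2, 5249 and 3206 for SLC6A9, and 3332 and 2882 for SLC1A5. Ranks by canonical length were not computed and could differ, above all for SLC3A2. The summed FPKM of the 10 members was 655.4 to 676.1 in control libraries, 871.1 to 882.6 in siRNA.1 libraries and 819.4 to 871.8 in siRNA.2 libraries. Members took 0.381% to 0.394%, 0.490% to 0.50% and 0.471% to 0.495% of all counts.

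Between siRNA.2 and siRNA.1, 0 of the 10 members passed the test in either direction, against 6.10% of all genes higher and 6.06% lower with siRNA.2. In that comparison the share of called genes that were higher was 50.2% with edgeR and 34.3% with limma on log2(FPKM + 0.1). Apart from SLC43A1, the largest difference was that of SLC7A11, at -0.14 on the log2 scale (95% CI -0.26 to -0.019, edgeR adjusted p = 0.138), and SLC38A1 was higher with siRNA.2 by 0.096 (95% CI 0.025 to 0.17, edgeR adjusted p = 0.0646), which passed without siRNA.1 replicate 2 (log2 difference 0.12, edgeR adjusted p = 0.0147). SLC1A5 differed by -0.077 (95% CI -0.16 to 0.0069), SLC7A5 by -0.038 (95% CI -0.0996 to 0.023), SLC3A2 by -0.035 (95% CI -0.11 to 0.040), SLC38A2 by -0.028 (95% CI -0.098 to 0.043) and SLC7A1 by 0.029 (95% CI -0.053 to 0.11). For these 5 genes the intervals exclude differences above 0.17 on the log2 scale in either direction. SLC6A9 (-0.072, 95% CI -0.20 to 0.059), SLC1A4 (0.084, 95% CI -0.089 to 0.26) and SLC43A1 (0.47, 95% CI -0.82 to 1.77) were bounded less tightly.

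Likeness between members was measured as the root mean square difference of centered log2 CPM over the 9 libraries, which share their control libraries and scaling, and is given as a description. The closest pairs were SLC7A1 with SLC38A2 (0.0412), SLC7A5 with SLC38A2 (0.0466), SLC7A5 with SLC3A2 (0.0670) and SLC3A2 with SLC1A5 (0.0678). SLC6A9 was also closest to SLC38A2 (0.0929), SLC1A4 to SLC3A2 (0.0875), SLC7A11 to SLC1A5 (0.139) and SLC38A1 to SLC6A9 (0.151). SLC43A1 was at least 0.495 from every other member. Of 11859 genes outside the members, the 5 most like SLC3A2 were CARS1 (0.0234), which encodes the cysteinyl-tRNA synthetase, NSUN5 (0.0364) and PES1 (0.0364), which act on ribosomal RNA, the mitochondrial chaperonin HSPD1 (0.0391) and DKC1 (0.0398), which modifies RNA.

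The other plasma membrane amino acid transporters moved in both directions. Of 32 listed, 15 were tested, of which 4 were higher and 3 lower with siRNA.1 and 4 higher and 6 lower with siRNA.2, with median log2 fold changes of 0.031 and -0.0097. Of all genes tested, 15.0% to 15.8% were called in each direction with each siRNA. The 6 lower with siRNA.2 became 3 without siRNA.2 replicate 2 and under both limma fits. SLC6A15, which carries branched-chain amino acids and proline, rose from 2.23 ± 0.197 FPKM (SD, n = 3) to 3.85 ± 0.321 and 4.44 ± 0.182. SLC38A5, a glutamine transporter, rose from 25.2 ± 0.488 to 35.2 ± 0.827 and 32.0 ± 1.48 FPKM, and SLC38A7, another glutamine transporter that is also known from lysosomes, rose from 4.53 ± 0.303 to 6.28 ± 0.337 and 5.34 ± 0.398 FPKM. SLC6A6, the taurine transporter, fell from 7.82 ± 0.0987 to 4.28 ± 0.400 and 5.41 ± 0.711 FPKM, with log2 fold changes of -0.90 and -0.54. SLC36A4, which carries proline and tryptophan, fell from 3.62 ± 0.143 to 2.35 ± 0.332 and 3.00 ± 0.0917 FPKM. With siRNA.2 the call on SLC36A4 was lost under both limma fits (limma adjusted p = 0.0828 and 0.116), as was that on SLC38A7 (limma adjusted p = 0.0700 and 0.0826), which was also lost in edgeR without control siRNA replicate 1 (edgeR adjusted p = 0.0871), control siRNA replicate 3 (0.103) or siRNA.2 replicate 1 (0.154). Of those not tested, SLC1A6, SLC1A7, SLC6A5, SLC7A3 and SLC36A2 were at 0 counts in every library.

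In the lysosome, 7 of 8 listed transporters were tested, with 4 higher and 1 lower with siRNA.1 and 2 higher and 1 lower with siRNA.2. Of all genes tested, 15.0% to 15.8% were called in each direction with each siRNA. SLC15A3, which exports histidine and peptides, rose from 0.833 ± 0.273 FPKM (SD, n = 3) to 3.11 ± 0.458 and 2.97 ± 0.420, and MFSD12, which carries cysteine into lysosomes, rose from 3.60 ± 0.425 to 5.63 ± 0.533 and 5.85 ± 0.566 FPKM. SLC36A1, an exporter of small neutral amino acids, fell from 4.37 ± 0.206 to 2.28 ± 0.172 and 2.74 ± 0.355 FPKM. In mitochondria, 9 of 10 carriers were tested, with 1 higher and 1 lower with siRNA.1 and 3 higher and 2 lower with siRNA.2. These shares were 11.1% and 11.1% with siRNA.1 and 33.3% and 22.2% with siRNA.2, against the same 15.0% to 15.8% of all genes. SLC25A13, the aspartate and glutamate carrier citrin, fell with both (log2 fold changes -0.50 and -0.18). The siRNA.2 call was lost under both limma fits (limma adjusted p = 0.0531 and 0.0745) and in edgeR without control siRNA replicate 3 (edgeR adjusted p = 0.0984) or siRNA.2 replicate 3 (0.0641).

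Genes of mTORC1 amino acid sensing, the pathway that reads leucine and arginine supply at the lysosome, were called in shares near those of all genes. Of 36 listed, 35 were tested, with 7 higher and 7 lower with siRNA.1 and 7 higher and 6 lower with siRNA.2, against 15.0% to 15.8% of all genes in each direction. MIOS and SEC13, which encode GATOR2 subunits, rose by log2 fold changes of 0.34 and 0.34 and of 0.17 and 0.31, and RPTOR, the mTORC1 scaffold, by 0.28 and 0.39. CASTOR2, of the arginine sensor family, fell by 0.98 and 1.38 on the log2 scale, BMT2, the S-adenosylmethionine sensor, by 0.88 and 1.07, and RRAGC, a Rag GTPase, by 0.31 and 0.79. The siRNA.1 counts depended on single libraries, with 4 higher without control siRNA replicate 3 and 4 higher and 3 lower without siRNA.1 replicate 1. The siRNA.1 call on RRAGC was lost without siRNA.1 replicate 1 (edgeR adjusted p = 0.0510), and that on SEC13 was lost with DESeq2 (adjusted p = 0.0597), under both limma fits (limma adjusted p = 0.123 and 0.150) and in edgeR without control siRNA replicate 3 (edgeR adjusted p = 0.375), siRNA.1 replicate 1 (0.0954) or siRNA.1 replicate 3 (0.121).

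Among 16 regulators of transporter genes, 10 were higher and 1 lower with each siRNA, against 15.0% to 15.8% of all genes in each direction. DDIT3 (CHOP), a stress response transcription factor, rose from 5.48 ± 0.768 FPKM (SD, n = 3) to 13.0 ± 0.176 and 11.9 ± 0.234. ATF3, another stress response factor, rose from 5.17 ± 0.735 to 13.0 ± 0.652 and 10.4 ± 0.582 FPKM, and MYC from 45.1 ± 0.626 to 82.8 ± 1.03 and 80.7 ± 1.12 FPKM. ATF4 itself and its target TRIB3 were named after their values were seen. ATF4 rose from 154.5 ± 6.13 to 187 ± 3.85 and 199.6 ± 3.54 FPKM, with log2 fold changes of 0.25 (edgeR adjusted p = 5.44e-09) and 0.36 (edgeR adjusted p = 3.88e-18), and TRIB3 from 17.4 ± 1.5 to 32.2 ± 2.76 and 26.3 ± 1.64 FPKM. NFE2L2 (NRF2), the factor of the antioxidant response, was the gene that fell, by 0.14 with siRNA.1 (edgeR adjusted p = 0.0271) and 0.15 with siRNA.2 (edgeR adjusted p = 0.0112) on the log2 scale. Under both limma fits its calls were lost with siRNA.1 (limma adjusted p = 0.214 and 0.252) and siRNA.2 (limma adjusted p = 0.120 and 0.151). In edgeR the siRNA.1 call was also lost with library totals (edgeR adjusted p = 0.0817), with no filter (0.0607) and without control siRNA replicate 1 (0.0928), control siRNA replicate 2 (0.0566) or siRNA.1 replicate 1 (0.272), and the siRNA.2 call without siRNA.2 replicate 1 (0.0852).

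Cystine imported by SLC7A11 feeds glutathione synthesis, and the 10 genes listed for it moved both ways, with 3 higher and 3 lower with each siRNA. The share of all genes called was 15.0% to 15.8% in each direction. CHAC1, which degrades glutathione and is a known ATF4 target, rose from 11.3 ± 1.51 FPKM (SD, n = 3) to 23.0 ± 1.08 and 23.1 ± 1.43. TXNRD1, the cytosolic thioredoxin reductase, rose from 58.3 ± 2.29 to 80.8 ± 2.54 and 71.5 ± 1.86 FPKM, and CBS, of cysteine synthesis from homocysteine, had log2 fold changes of 0.43 and 0.62. Both CBS calls were lost with DESeq2 (adjusted p = 0.430 and 0.225), under both limma fits (limma adjusted p = 0.215 to 0.350) and in edgeR without control siRNA replicate 2 (edgeR adjusted p = 0.435 and 0.0554). That of siRNA.1 was also lost with a minimum of 1 FPKM (edgeR adjusted p = 0.120) and without control siRNA replicate 1 (0.280) or siRNA.1 replicate 1 (0.107), and that of siRNA.2 without siRNA.2 replicate 2 (0.144). GSR, glutathione reductase, fell from 33.3 ± 1.91 to 22.0 ± 0.505 and 18.9 ± 0.852 FPKM. GPX4, which reduces lipid peroxides with glutathione, fell from 39.8 ± 0.578 to 31.9 ± 3.56 and 32.6 ± 2.48 FPKM, and GCLM, a subunit of the first enzyme of glutathione synthesis, from 24.8 ± 1.09 to 20.1 ± 0.798 and 21.9 ± 0.955 FPKM. With siRNA.2 the calls on GPX4 (limma adjusted p = 0.0531 and 0.0744) and GCLM (limma adjusted p = 0.0593 and 0.0814) were lost under both limma fits, and with siRNA.1 that on GPX4 under limma on log2(FPKM + 0.1) (limma adjusted p = 0.0531).

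Of 15 genes that use glutamine, arginine, leucine or tryptophan, 14 were tested, with 6 higher and 4 lower with siRNA.1 and 7 higher and 4 lower with siRNA.2. The share of all genes called was 15.0% to 15.8% in each direction. IDO1, which starts tryptophan breakdown, rose from 0.323 ± 0.116 FPKM (SD, n = 3) to 1.55 ± 0.531 and 1.71 ± 0.205, and WARS1, the tryptophanyl-tRNA synthetase, from 47.9 ± 1.29 to 90.5 ± 1.66 and 98.5 ± 1.5 FPKM. ASNS, asparagine synthetase, rose from 1.12 ± 0.0208 to 1.82 ± 0.133 and 2.06 ± 0.117 FPKM. ASS1, of arginine synthesis, fell from 96.5 ± 1.86 to 67.0 ± 4.12 and 69.1 ± 1.69 FPKM. GLUD1, which turns glutamate into a citric acid cycle intermediate, fell by 0.28 and 0.29, and BCAT1, which transaminates leucine, by 0.19 and 0.34 on the log2 scale, of which the siRNA.1 call was lost under both limma fits (limma adjusted p = 0.123 and 0.155).

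**Figure D4:**
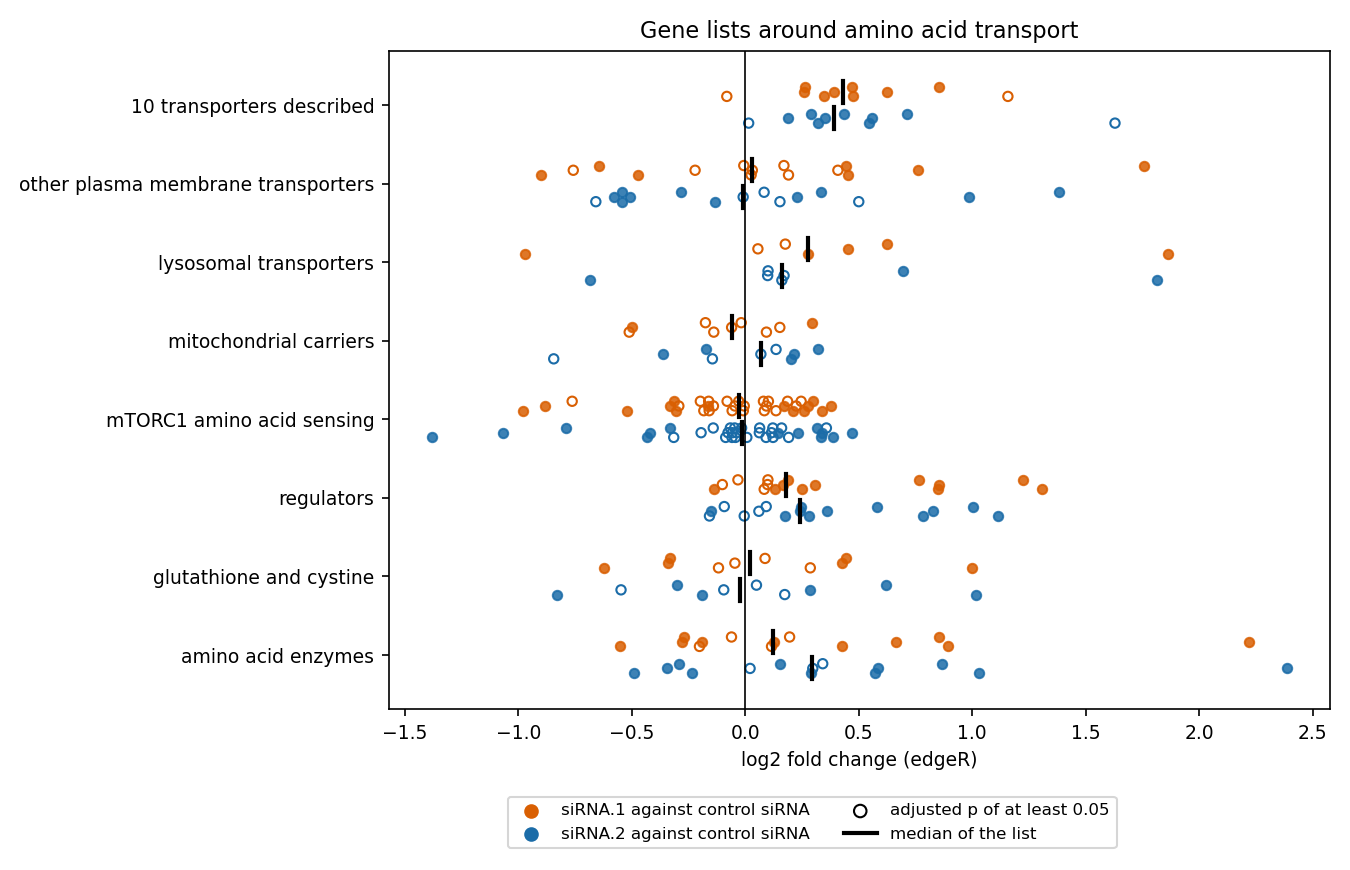
edgeR log2 fold change (horizontal axis) of the tested genes of 8 lists (vertical axis) with siRNA.1 and siRNA.2 against control siRNA. Filled points passed an adjusted p under 0.05, open points did not, and black bars are list medians. The described transporters have medians of 0.43 and 0.39, with no filled point below 0, while the other transporter lists have filled points on both sides.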

How the data were processed

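RNA-seq was measured in TE13 cells with control siRNA, siRNA.1 or siRNA.2, with 3 libraries per condition grouped by their labels, described by the submitters as biological replicates. Per the methods, poly(A)+ libraries were sequenced, aligned to GRCh38 with STAR and counted with featureCounts. Versions, annotation release, strandedness and the treatment of reads with several matches are not given in the sources used here. The deposited table holds raw, unnormalized counts of each gene. It also holds deposited FPKM, the counts scaled by exonic length and library total, which were used for levels. No column of per-library values was left out.

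Counts were tested with edgeR 4.0.16 (quasi-likelihood, TMM) in R 4.3.3, with all 9 libraries fitted together. The 21395 genes that averaged 0.1 FPKM or more were tested and their p-values adjusted over all of them (Benjamini-Hochberg, threshold 0.05). SE was derived from the log2 fold change and the F statistic. limma 3.58.1 and DESeq2 1.42.0 served as alternatives, beside other scalings and filters, a replicate block, fits of 2 conditions and each library left out. The ratio of chains was tested by exact permutation over libraries. Libraries of a condition differed by more than sampling noise (chi-square per degree of freedom 2.76 to 4.62), and none was merged with another as a duplicate.

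The members and lists were chosen with earlier results of these data known. Of each list, the named genes are the 3 per direction that changed most, averaged over the siRNAs, among genes called with both and averaging 1 FPKM or more, and for each member the most like other member. Sequences were read from RefSeq promoter windows (GRCh38.p14) and, with GENCODE release 44, from hg38, whose gene starts and ends equal the deposited ones for all 10 members.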

Additional observations from a re-analysis of the deposited data

How the results depend on the processing

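Members called higher numbered 8 with siRNA.1 in every alternative tried. With siRNA.2 they were 8, or 7 where the call on SLC6A9 was lost (both limma fits, without control siRNA replicate 3 and without siRNA.2 replicate 1), and under the replicate block they were 8 in both comparisons. Of 536 alternative log2 fold changes of single members, 527 kept direction and side of the threshold. The value of SLC6A9 with siRNA.2 missed the threshold in limma on log2(FPKM + 0.1) (0.20, adjusted p = 0.0769) and on log2(FPKM + 1) (0.18, adjusted p = 0.0594). Values that turned sign ranged, with libraries left out, from -0.002064 to 0.03598 for SLC38A1 with siRNA.2 (negative without control siRNA replicate 2), from -0.07805 to 0.01633 for SLC7A5 between the siRNAs (positive without siRNA.2 replicate 1), and from -0.0005117 to 0.05630 for SLC7A1 between the siRNAs (negative without siRNA.1 replicate 1). With libraries left out in turn, members lower with siRNA.1 numbered 0 to 1 and members higher with siRNA.2 than with siRNA.1 0 to 1, both 1 without siRNA.1 replicate 2, and the chain ratio between the siRNAs moved from -0.1356 to 0.08138, with values of 0.08138, 0.03679 and 0.02606 without siRNA.1 replicate 2, siRNA.2 replicate 1 and siRNA.2 replicate 2. SLC43A1 had too few counts for an adjusted p from DESeq2 between the siRNAs. With a mean of 0.139 FPKM, it was also left out of every comparison with a minimum of 1 FPKM.

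Under both limma fits, mitochondrial carriers called with siRNA.1 fell to 0 higher, mTORC1 genes to 4 lower, and regulators to 0 lower, while with siRNA.2 the other plasma membrane transporters fell to 3 lower, mitochondrial carriers to 1 higher and 0 lower, regulators to 0 lower and glutathione genes to 1 lower. mTORC1 genes higher with siRNA.1 fell to 4 under limma on log2(FPKM + 0.1). Mitochondrial carriers lower with siRNA.1 rose to 2 with a minimum of 1 FPKM. Regulators lower with siRNA.1 were 2 with DESeq2 and a minimum of 1 FPKM and 0 with library totals or no filter, and with siRNA.2 they were 2 with DESeq2, median-of-ratios scaling and a minimum of 1 FPKM. With libraries left out, counts with siRNA.1 ranged over 0 to 1 mitochondrial carriers higher (0 without control siRNA replicate 1 or siRNA.1 replicate 1), 4 to 8 mTORC1 genes higher, 3 to 7 lower and 0 to 2 regulators lower. With siRNA.2 they ranged over 3 to 6 other plasma membrane transporters lower (3 without siRNA.2 replicate 2), 0 to 2 mitochondrial carriers lower (0 without siRNA.2 replicate 3, 1 without control siRNA replicate 3) and 1 to 2 regulators lower. The cause was not tested.

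Same-numbered libraries had correlations of their deviations between -0.194 and 0.107, and other-numbered libraries between -0.0776 and 0.184. No pairing by number was visible in these values, which cannot tell whether same-numbered libraries were prepared together. The replicate block changed no call on a member and left 3106 genes higher and 3109 lower with siRNA.1. Depth limits LINC00885 and SLC43A1, both at 18 counts or fewer in every library.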
